A study of Mus musculus with 6 samples.

Results

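Glycolysis is the chain of cytosolic reactions that turns glucose into pyruvate, and lactate dehydrogenase interconverts pyruvate and lactate. Most steps can be run by several isozymes from separate genes, which differ in tissue use and regulation. Mouse oocytes are known for making little use of glucose and for living largely on pyruvate, much of it supplied by the surrounding cumulus cells, which are glycolytic. Polycomb repressive complex 1 (PRC1) keeps genes silent, and Ring1 and Rnf2 encode its catalytic subunits.

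The genes described here are 10 of the 24028 in the table: the hexokinase genes Hk1 and Hk2, the phosphofructokinase genes Pfkl, Pfkm and Pfkp, the aldolase gene Aldoa, the phosphoglycerate kinase gene Pgk1, the pyruvate kinase gene Pkm and the lactate dehydrogenase genes Ldha and Ldhb. They were taken by symbol, and all 10 were found. RNA was measured in oocytes at the germinal vesicle (GV) stage, before maturation, from females of about 3 months on a mixed FVB, 129/Sv and C57BL/6J background. The 3 control libraries came from Ring1 -/-; Rnf2 f/f females. The 3 dKO libraries came from Ring1 -/-; Rnf2 f/f; Zp3-cre females, in which the promoter of an egg coat gene drives Cre in the oocyte. Both groups therefore lacked Ring1, none of these libraries had wild-type Ring1, and the transgene's own effect and that of Rnf2 loss cannot be told apart. Each library pooled 15 oocytes of 1 female. Levels are FPKM (fragments per kilobase of transcript, relative to sequenced depth), which are per length, so that genes can be set side by side.

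Rnf2 followed the labels: it lay between 46.8 and 53.7 FPKM in controls and between 5.31 and 14.8 FPKM in the dKO group (log2 change -2.37 ± 0.30, SE; limma adjusted p = 0.000696). Ring1 did not exceed 0.240 FPKM in any library. The 12 oocyte markers were all tested, and summed to 9848 to 10446 FPKM in controls and 7210 to 8429 FPKM in the dKO group. Depth, which FPKM give only in relative terms, ranged from 0.661 to 1.08 of control 1 and was lowest in dKO 1 and dKO 2. Every library pooled 15 oocytes and FPKM are relative, so less marker RNA per oocyte and more RNA of other genes or cells cannot be told apart. For other cell types in these bulk samples, the number of cells and the RNA per cell cannot be told apart either.

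The 250 bases before a RefSeq start site are shown for the 3 genes that passed the filter on low values and rose, and for Ldhb, the lactate dehydrogenase gene that dominates in these oocytes, so that the promoters can be compared. Ldha has another RefSeq start site downstream, and the window of its upstream site is printed. Capitals mark each match on either strand to ACGTG (the core of the hypoxia response element), to CACGTG (an E-box, which holds ACGTG on both strands) or to GGGCGG (the GC box). The sequences are from RefSeq on GRCm38.p6, run 5′ to 3′ on the gene's strand, and lie outside every GENCODE M21 exon. The deposited values were made on another build, mm9, so the coordinates only place the sequences.
Ldha, chr7:46845554-46845803, plus strand: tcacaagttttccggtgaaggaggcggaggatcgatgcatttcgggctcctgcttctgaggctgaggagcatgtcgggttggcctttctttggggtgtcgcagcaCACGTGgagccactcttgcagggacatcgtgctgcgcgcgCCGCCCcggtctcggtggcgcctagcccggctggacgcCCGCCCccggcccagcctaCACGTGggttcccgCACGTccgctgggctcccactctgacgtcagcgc
Hk2, chr6:82774455-82774704, minus strand: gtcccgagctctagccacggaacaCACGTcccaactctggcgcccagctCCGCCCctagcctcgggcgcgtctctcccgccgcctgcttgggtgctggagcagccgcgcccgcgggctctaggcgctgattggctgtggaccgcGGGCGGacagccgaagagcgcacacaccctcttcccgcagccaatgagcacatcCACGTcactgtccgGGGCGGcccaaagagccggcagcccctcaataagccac
Pgk1, chrX:106186850-106187099, plus strand: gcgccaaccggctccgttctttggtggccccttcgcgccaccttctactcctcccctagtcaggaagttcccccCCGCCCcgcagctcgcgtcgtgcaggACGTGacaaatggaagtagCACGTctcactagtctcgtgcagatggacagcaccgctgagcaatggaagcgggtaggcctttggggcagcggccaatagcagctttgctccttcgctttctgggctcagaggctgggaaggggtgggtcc
Ldhb, chr6:142507958-142508207, minus strand: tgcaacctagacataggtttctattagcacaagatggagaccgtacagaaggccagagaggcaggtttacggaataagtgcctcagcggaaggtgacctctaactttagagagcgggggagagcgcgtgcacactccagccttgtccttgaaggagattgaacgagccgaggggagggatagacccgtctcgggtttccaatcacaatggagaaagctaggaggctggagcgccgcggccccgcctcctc

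The printed Ldha window held 5 matches to ACGTG, counting each strand of its 2 CACGTG boxes, the Hk2 window 2, the Pgk1 window 2 and the Ldhb window 0. The window of the downstream Ldha start (chr7:46846832-46847081) held 0 matches to each of the 3 motifs and 9 CG dinucleotides. Matches to ACGTG were not limited to genes that rose. Pfkm, which fell, had 2 at 1 of its start sites, within 1 CACGTG, and 1 at another. Pkm, which fell, and Aldoa, which was not called, had 1 in at least 1 window. Hk1, Pfkl and Pfkp had 0 matches to ACGTG, though each has a window that holds GCGTG, which was not counted. GGGCGG was matched 2 times in the printed Ldha window, 3 times in the Hk2 window, 1 time in the Pgk1 window and 0 times in the Ldhb window. It too was not limited to genes that rose. Pfkp had 4 matches, the Aldoa windows 0, 2 and 3 and the Pkm windows 1 and 0. Hk1, Pfkl and Pfkm had 0. Of the 32851 RefSeq promoter windows of this length, 16.6% held ACGTG, 6.02% held CACGTG and 32.7% held GGGCGG. CG dinucleotides numbered 25 in the printed Ldha window, 25 in the Hk2 window, 17 in the Pgk1 window and 14 in the Ldhb window, against a median of 6 over all windows. In other genes they numbered 21 and 18 for Pkm, 16 for Pfkp, 13 for Pfkl and 0, 21 and 19 for Aldoa. The Pfkm windows held 2, 6, 10 and 3 and those of Hk1 1 and 14. These are matches of letters and not sites of binding.

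In control oocytes the pathway's transcripts stood at very unequal levels. Ldhb averaged 2126 ± 298 FPKM (SD, n = 3) and had the control mean of rank 6 in the whole table. Pkm ranged from 70.2 to 86.1 FPKM. Below them came Aldoa at 31.9 ± 1.48, Pgk1 at 7.15 ± 0.746, Pfkm at 4.31 ± 0.556 and Pfkl at 2.36 ± 0.101 FPKM (SD, n = 3). The lowest were Pfkp at 1.60 ± 0.176, Ldha at 0.885 ± 0.548, Hk2 at 0.575 ± 0.0205 and Hk1 at 0.150 ± 0.111 FPKM (SD, n = 3). Neighbours in this order had separate ranges over the 3 libraries except Pfkp with Ldha and Ldha with Hk2. The mean level of Ldhb was 27.0 times that of Pkm, the next in the order.

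In dKO oocytes Ldhb still led at 1764 ± 659 FPKM, ahead of Pkm at 44.6 ± 11.5 and Aldoa at 25.9 ± 8.85 FPKM (SD, n = 3). Ldha moved up the order to stand beside Pgk1, at 12.7 ± 4.90 against 11.3 ± 0.908 FPKM (SD, n = 3), with overlapping ranges. The ranges of Pfkl and Hk2 also overlapped, as did those of Pfkm and Pfkp. Hk1 was last here too, at 0.955 ± 0.331 FPKM (SD, n = 3).

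**Figure D1:**
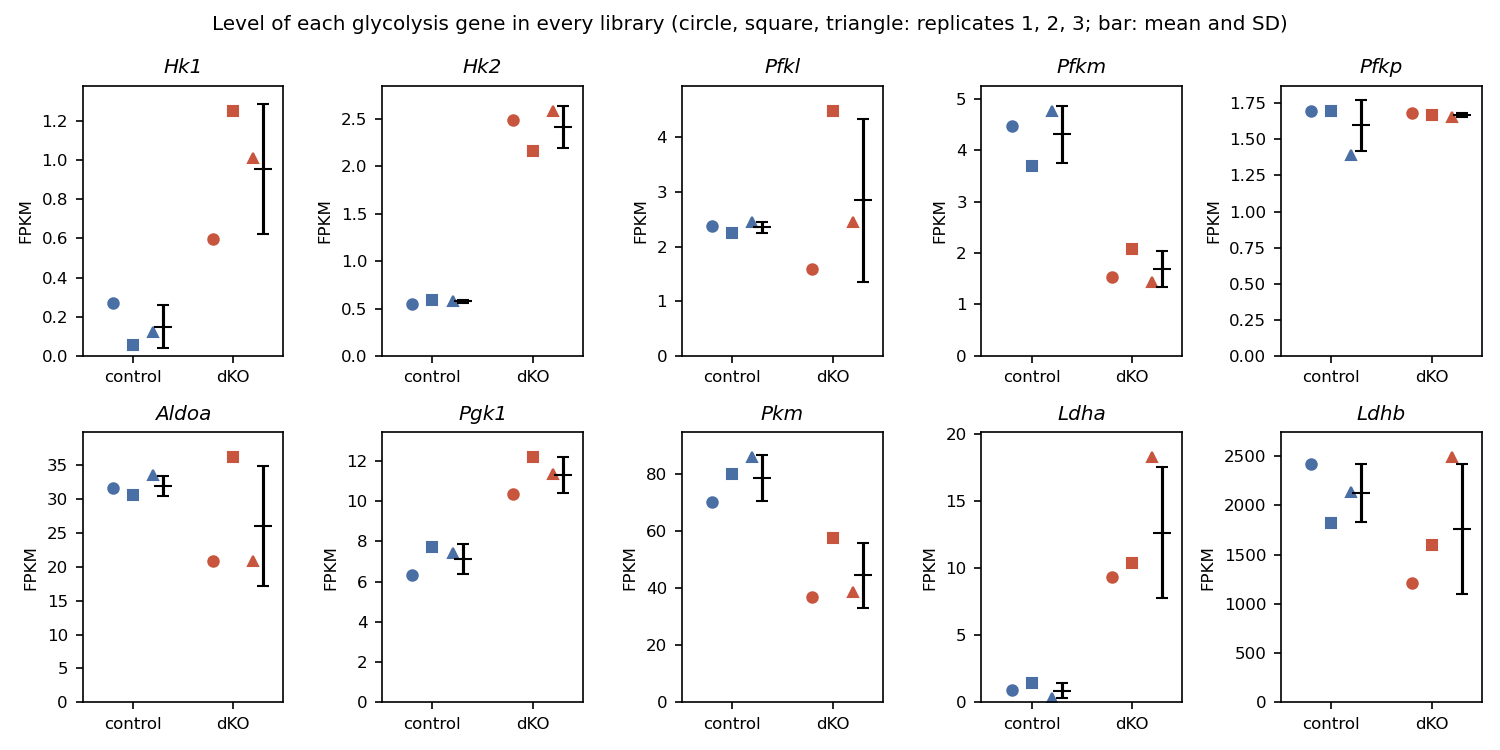
FPKM of the 10 glycolysis genes in each of the 3 control and 3 dKO libraries, each panel on its own linear axis from 0, with replicates 1 to 3 as circle, square and triangle and the mean with its SD as a black bar. The groups are apart for Hk1, Hk2, Pgk1 and Ldha, with dKO higher, and for Pfkm and Pkm, with dKO lower.

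A filter of at least 1 FPKM in at least 3 libraries kept 9 of the 10 genes. Of these Ldha, Hk2 and Pgk1 rose, Pfkm and Pkm fell, and Pfkl, Pfkp, Aldoa and Ldhb did not pass the threshold (limma, adjusted p at most 0.05 over the 11334 genes tested). Over all tested genes 21% were called, 14% higher and 7.04% lower. The 798 lower calls became 231 to 262 without any 1 control and 1465 without dKO replicate 2. Hk2 and Ldha had control means under 1 FPKM and passed the filter through the dKO libraries. Among all tested genes of that kind 77.4% rose, so a rise is the usual outcome there. Of the 7 genes with a control mean of 1 FPKM or more 1 rose and 2 fell, where 7.77% and 7.73% of such genes did. The groups did not overlap for the same 5 genes, 3 with dKO above and 2 with dKO below, against 41.5% of all tested genes (22.3% above and 19.2% below). The median log2 change of the 9 was 0.042, beside -0.019 over all tested genes.

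Hexokinases phosphorylate glucose and so hold it in the cell. Hk2, the inducible isozyme of muscle and growing cells, measured 0.551, 0.590 and 0.582 FPKM in controls 1 to 3, against 2.49, 2.17 and 2.59 in dKO 1 to 3. Each dKO library was above every control, and both groups were tight. The dKO mean was 4.21 times that of the controls (log2 change 1.12 ± 0.17, SE; limma adjusted p = 0.00169). Same-numbered libraries shared a lane of the flow cell, and within the lanes Hk2 differed by 1.17, 0.99 and 1.18 log2 units. Hk2 passed the threshold in all 14 alternatives of filter, pseudocount, scaling, model or libraries that kept it. At a filter of 5 FPKM it was not kept, and passed when added back to the kept genes (limma adjusted p 0.00154 to 0.0342 over these 15).

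Hk1, the broadly expressed isozyme, measured 0.272, 0.0548 and 0.121 FPKM in controls, against 0.599, 1.25 and 1.01 in the dKO group. It did not pass the filter and was tested with the kept genes added to it. The dKO libraries lay above the controls, at levels where few fragments decide a value (log2 change 0.76 ± 0.18, SE; limma adjusted p = 0.0171). The call was lost after quantile normalization (log2 change 0.13; limma adjusted p = 0.637), without control replicate 2 (0.0854) and without control replicate 3 (0.0703). The sum of both hexokinase genes was 0.645 to 0.824 FPKM in controls and 3.09 to 3.60 FPKM in the dKO group. Hk1 made up 19.6% ± 12.5 of that sum in controls and 28.0% ± 8.63 in the dKO group (SD, n = 3), and these shares overlapped.

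Phosphofructokinase commits sugar to glycolysis and is a main control point of the pathway, built from muscle, liver and platelet subunits. Pfkm, the muscle subunit, measured 4.47, 3.69 and 4.77 FPKM in controls, against 1.53, 2.08 and 1.43 in the dKO group. All 3 dKO libraries lay below the lowest control. The dKO mean was 39.0% of the control mean (log2 change -0.99 ± 0.20, SE; limma adjusted p = 0.00863), and the differences within lanes were -1.11, -0.61 and -1.25 log2 units. Pfkm passed the threshold in all 14 alternatives that kept it, and when added back at the 5 FPKM filter, which it did not pass (limma adjusted p 0.00304 to 0.0453 over these 15). Its exons overlap those of Senp1 on the other strand and of Gm26513 on its own. Senp1, a SUMO protease gene, averaged 35.3 FPKM without and 33.6 FPKM with Zp3-cre and was not called (limma adjusted p = 0.756).

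Pfkl, the liver subunit, measured 2.37, 2.25 and 2.45 FPKM in controls, against 1.59, 4.49 and 2.46 in the dKO group. The dKO libraries scattered to both sides of the controls (log2 change 0.13, 95% interval -0.50 to 0.75; limma adjusted p = 0.771), and the sign was negative after quantile normalization and without dKO replicate 2. Pfkp, the platelet subunit, measured 1.70, 1.70 and 1.39 FPKM in controls, against 1.68, 1.67 and 1.65 in the dKO group. Its groups overlapped (log2 change 0.042, 95% interval -0.35 to 0.43; limma adjusted p = 0.884), and the sign was negative after median-ratio scaling, after quantile normalization and without control replicate 3. Pfkp exons overlap those of Pitrm1 on the other strand. Pitrm1 averaged 18.9 FPKM in controls and 14.5 FPKM in the dKO group, with every dKO library below every control, and was not called (limma adjusted p = 0.153). Whether Pitrm1 reads entered the Pfkp values and shares was not tested.

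The makeup of the phosphofructokinase transcripts differed between the groups, while their sum overlapped. Pfkm held 52.4, 48.3 and 55.4% of the summed level in controls, against 31.8, 25.2 and 25.8% in the dKO group. Pfkl held 27.8 to 29.4% in controls and 33.2 to 54.5% with Zp3-cre, also without overlap. The Pfkp shares of 16.2 to 22.2% and 20.2 to 35.1% overlapped. The sum was 7.64 to 8.61 FPKM in controls and 4.80 to 8.24 FPKM in the dKO group. Shares are given as a description, with no test.

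**Figure D2:**
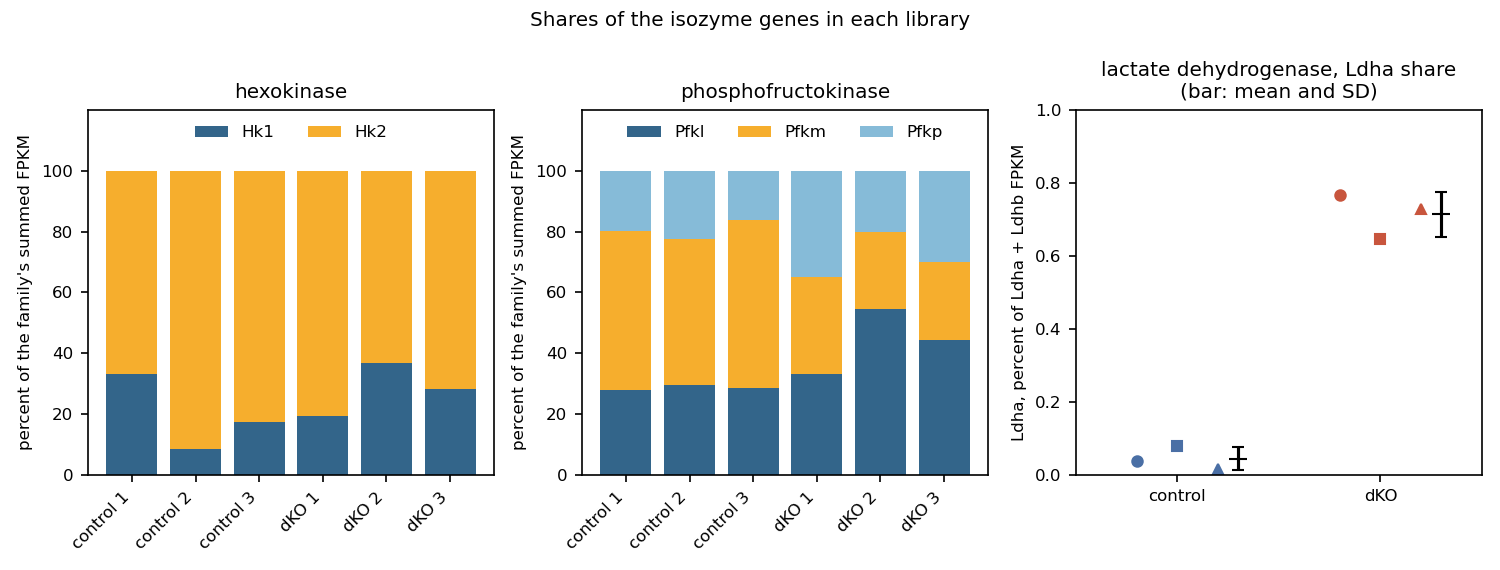
Percent of the summed FPKM held by each hexokinase gene (left) and each phosphofructokinase gene (middle) in the 6 libraries, and percent of Ldha in the sum of Ldha and Ldhb (right, on an axis from 0 to 1, with mean and SD as a bar). The Pfkm share is smaller in every dKO library than in any control and the Ldha share is larger, at 0.646 to 0.768% against at most 0.0776%.

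Aldolase splits fructose bisphosphate into triose phosphates. Aldoa, its general and muscle form, measured 31.7, 30.5 and 33.5 FPKM in controls, against 20.8, 36.2 and 20.9 in the dKO group. dKO 1 and dKO 3 were below the controls and dKO 2 above them (log2 change -0.33, 95% interval -0.84 to 0.17; limma adjusted p = 0.311). Without dKO replicate 2 the log2 change was -0.59 and passed the threshold (limma adjusted p = 0.0213). The brain form Aldoc did not exceed 0.168 FPKM in any library.

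Phosphoglycerate kinase makes the first ATP of the pathway. Pgk1, an X-linked gene, measured 6.31, 7.73 and 7.41 FPKM in controls, against 10.4, 12.2 and 11.3 in the dKO group. The groups did not overlap, and the differences within lanes were 0.64, 0.60 and 0.55 log2 units (log2 change 0.60 ± 0.18, SE; limma adjusted p = 0.0457). This call held in 6 of 15 alternatives. For Pgk1 it was lost with the replicate block (limma adjusted p = 0.0630), after median-ratio scaling (0.0656) or quantile normalization (0.0653) and with array weights (0.0591). It was also lost without control replicate 1, 2 or 3 (limma adjusted p 0.182, 0.125 and 0.131) and without dKO replicate 2 (0.0678) or 3 (0.0536). The testis gene for this step, Pgk2, was listed at 0 in all 6 libraries.

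Pyruvate kinase makes the last ATP of the pathway and releases pyruvate. Pkm, whose alternative products are not parted by gene-level values, measured 70.2, 80.0 and 86.1 FPKM in controls, against 37.0, 57.8 and 38.9 in the dKO group. All dKO libraries lay below all controls. The dKO mean was 56.6% of the control mean (log2 change -0.83 ± 0.20, SE; limma adjusted p = 0.0167), with differences of -0.91, -0.46 and -1.13 log2 units within lanes. The call was lost without control replicate 2 (limma adjusted p = 0.0684) or 3 (0.0826). Pkm exons overlap those of Gm49759 on the same strand. The liver and red cell gene Pklr was listed at 0 in all 6 libraries.

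Lactate dehydrogenase works as a tetramer of A and B subunits. Ldha, which encodes the A subunit typical of muscle and glycolytic tissue, measured 0.914, 1.42 and 0.323 FPKM in controls, against 9.35, 10.4 and 18.3 in the dKO group. The lowest dKO library was far above the highest control, and dKO 3 was highest. The dKO mean was 14.3 times that of the controls (log2 change 2.84 ± 0.31, SE; limma adjusted p = 0.000337), a change of rank 111 from the top among the 11334 tested genes. Within lanes the differences were 2.43, 2.23 and 3.87 log2 units. Ldha passed the threshold in all 15 alternatives (log2 change 2.57 to 3.82; limma adjusted p 0.00026 to 0.00636).

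Ldhb, which encodes the B subunit typical of heart, measured 2421, 1825 and 2132 FPKM in controls, against 1208, 1594 and 2492 in the dKO group. The dKO values lay on both sides of the controls, with dKO 3 the highest of the 6 libraries (log2 change -0.32, 95% interval -1.01 to 0.36; limma adjusted p = 0.474), and the sign was positive after quantile normalization. Ldha made up 0.768, 0.646 and 0.729% of the summed Ldha and Ldhb level in the dKO group, against 0.0378, 0.0776 and 0.0152% in controls. Ldhb thus held at least 99.2% of that sum in each library.

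Other lactate dehydrogenase genes gave other values. Ldhc, the testis form, is the next protein-coding gene after Ldha in the RefSeq order. It measured 16.9, 9.11 and 3.45 FPKM in controls, against 14.1, 11.6 and 4.03 in the dKO group, so replicate 3 was low in both and the groups overlapped (log2 change 0.084, 95% interval -1.14 to 1.31; limma adjusted p = 0.925). The 3 protein-coding neighbours on either side of Ldha were looked up after its values were seen. Of these Hps5, Gtf2h1, Ldhc, Tsg101 and Uevld were tested and none was called (limma adjusted p 0.0743 to 0.961), with unadjusted p under 0.05 for Gtf2h1 (0.0188), and Saa2 was below the filter. Ldhd, the mitochondrial enzyme for D-lactate, measured 16.0, 15.6 and 17.0 FPKM in controls, against 2.97, 5.49 and 6.99 in the dKO group, and fell (log2 change -1.54 ± 0.26, SE; limma adjusted p = 0.00356).

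The genes whose 6 values were most like those of Ldha were Zfp39, Fmnl1, Otx1, Vgll2 and Smoc1. Likeness was the root mean square difference over the 6 libraries of log2(FPKM + 1) centred on each gene's mean, and it was 0.227, 0.240, 0.241, 0.271 and 0.272. Their higher dKO values follow from this choice. All but Otx1 were under 1 FPKM in every control and passed the filter through the dKO libraries. Zfp39, a zinc finger gene, averaged 0.680 FPKM in controls and 8.60 FPKM with Zp3-cre. The homeobox gene Otx1 ranged from 8.41 to 12.6 FPKM in controls and from 64.9 to 84.1 FPKM in the dKO group.

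Markers of granulosa and cumulus cells, which surround the oocyte, did not all move the same way. Their 17 genes summed to 27.7 to 34.3 FPKM in controls and 68.4 to 71.0 FPKM in the dKO group, and of 9 tested 6 rose and 0 fell (limma; 6 and 1 at an unadjusted p under 0.05). Of the 6, 5 had control means under 1 FPKM and passed the filter through the dKO libraries, where 77.4% of all such genes rose. The 6 became 3 without control replicate 2, after quantile normalization and at a filter of 5 FPKM, and 4 without control replicate 1 or 3. Ptgs2, a prostaglandin synthase of cumulus cells, averaged 0.597 ± 0.115 and 15.9 ± 1.99 FPKM in the controls and dKO group (SD, n = 3). Fshr, the receptor for follicle-stimulating hormone, averaged 0.158 ± 0.0183 and 10.6 ± 1.23 FPKM (SD, n = 3). Nr5a2 averaged 16.5 ± 2.02 and 25.5 ± 1.61 FPKM (SD, n = 3). Most of the higher dKO sum lay in Ptgs2, Fshr and Nr5a2. None of the 17 was listed at 0 in all libraries, and 6 stayed under 1 FPKM throughout. Of the other genes of this list, all named here after their values were seen, Amh ranged from 0.0432 to 1.03 FPKM in controls and from 0.122 to 0.684 FPKM in the dKO group. Foxl2 averaged 0.0596 FPKM in controls and 0.347 FPKM in the dKO group, with overlap. It did not exceed 0.586 FPKM and Amhr2 0.0817 FPKM in any library. Cyp19a1, the estrogen synthase gene, measured 11.3, 7.60 and 10.9 FPKM in controls, against 5.23, 6.19 and 5.93 in the dKO group. It alone of the list lay below every control in every dKO library. Wt1, Has2, Gja1 and Lhcgr lay above every control in every dKO library. In controls and the dKO group Wt1 averaged 0.102 and 1.25 FPKM, Has2 0.337 and 1.54, Gja1 0.220 and 1.05, and Lhcgr 0.0409 and 0.280.

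Markers of theca, stroma, vessel and blood cells, 15 genes, summed to 22.8 to 30.4 FPKM in controls and 23.0 to 28.4 FPKM in the dKO group. Most of that sum was Pecam1. Without it, a split made after the values were seen, the other 14 summed to 1.84 to 3.50 FPKM in controls and 8.73 to 14.6 FPKM in the dKO group. In the dKO group 7 of them were above every control and 0 below, but of these 7 only Nr2f2 passed the filter. Over all tested genes 22.3% were above and 19.2% below, and no such share was taken for genes under the filter. Of the 3 tested 1 rose (Nr2f2, with a control mean under 1 FPKM) and 1 fell (Pecam1, a call lost without control replicate 1 or 3 or dKO replicate 1), and Hbb-b1 was listed at 0 in all libraries. Among the 12 oocyte markers, 1 rose and 3 fell (limma; 1 and 8 at an unadjusted p under 0.05), with a median log2 change of -0.59. That is 33.3% called, beside 21% of all tested genes. All 12 had control means of 1 FPKM or more, where 7.77% of all tested genes rose and 7.73% fell. In the dKO group 7 of the 12 were below every control and 1 was above, against the 19.2% and 22.3% over all tested genes. The fallen were the growth factor gene Bmp15 and the genes Ooep and Kit, and the risen was Dppa3, a maternal factor gene. These calls were unstable: without any 1 control 0 rose and 0 fell, without dKO replicate 1 0 rose and 1 fell, and without dKO replicate 2 1 rose and 6 fell. The part of other cells, or of a smaller oocyte share of the RNA, in the changes of Ldha, Hk1, Hk2, Pgk1, Pfkm and Pkm was not tested.

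**Figure D3:**
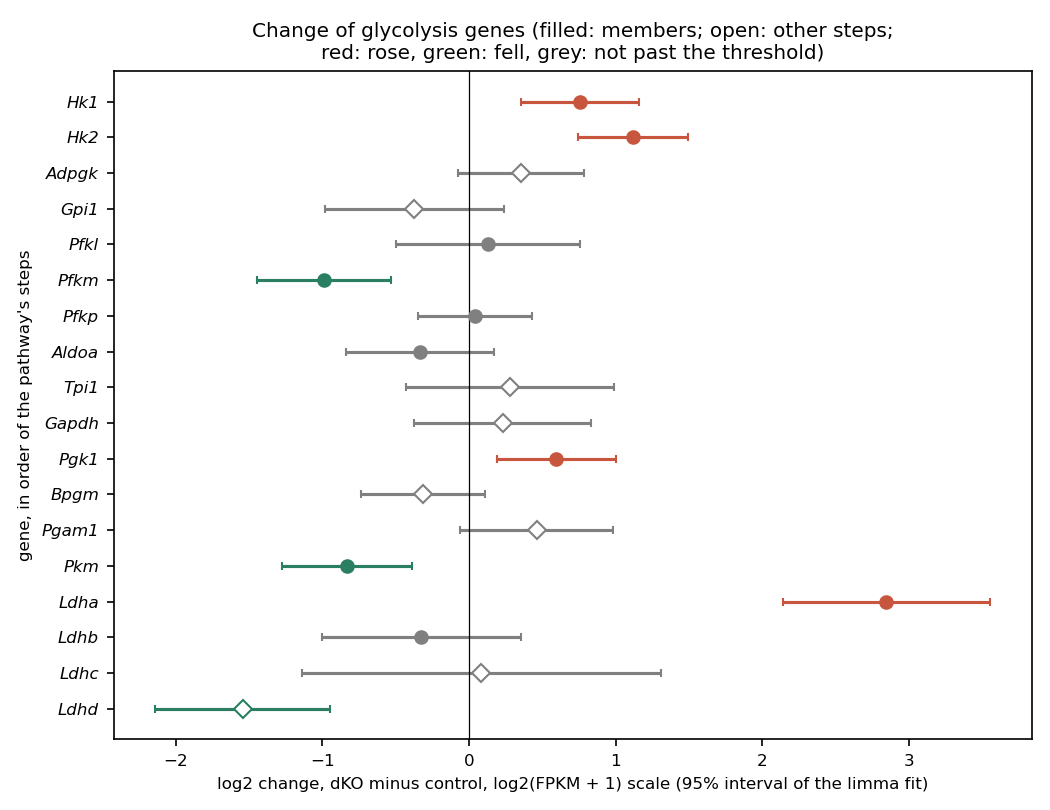
Log2 change, dKO minus control, of the 10 genes (filled) and of the 8 other tested glycolysis genes (open), in the order of the pathway, with the 95% interval of the limma fit. Called rises and falls are both spread along the pathway, and Ldha, at 2.84, has the highest value plotted.

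In the rest of the pathway most genes were below the filter. Of 22 further glycolysis genes 8 were tested, 0 rose and 1 fell (Ldhd), by limma adjusted and unadjusted p alike, and their median log2 change was 0.16. That is 12.5% called, beside 21% of all tested genes. All 8 had control means of 1 FPKM or more, where 7.77% of all tested genes rose and 7.73% fell. Bpgm, which makes the red cell effector bisphosphoglycerate, was the most abundant at 819 ± 76.3 FPKM in controls and 661 ± 72.8 FPKM with Zp3-cre (SD, n = 3; limma adjusted p = 0.265). Adpgk, an ADP-dependent glucokinase, averaged 20.6 and 26.9 FPKM (limma adjusted p = 0.212). Eno1 and Gapdh are uncertain, since 3 and 71 other GENCODE genes are at least 95% identical to them over at least 50% of the transcript. Eno1 did not exceed 1.28 FPKM, while its near-identical copy Eno1b ranged from 7.11 to 9.31 FPKM in controls and from 6.74 to 16.0 FPKM in the dKO group. By the same measure Ldha and Pgk1 have 2 such copies each and Ldhb and Pkm 1 each, all pseudogenes, and the other 6 of the 10 genes have 0.

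Transport of sugar, lactate and pyruvate gave 1 rise and 0 falls among 10 tested of 17 genes (limma; 3 and 0 at an unadjusted p under 0.05), with a median log2 change of -0.0058. The riser had a control mean under 1 FPKM, a level at which 77.4% of all tested genes rose, and of the 9 others 0 were called. Slc16a7, a carrier of pyruvate and lactate, measured 0.973, 0.659 and 0.484 FPKM in controls, against 3.82, 1.86 and 2.86 in the dKO group. Its groups did not overlap (log2 change 1.15, 95% interval 0.62 to 1.68; limma adjusted p = 0.00888), and the call was lost after quantile normalization (0.0646). Bsg, which escorts such carriers to the membrane, averaged 36.1 and 28.6 FPKM (limma adjusted p = 0.216) and the glucose transporter gene Slc2a1 24.3 and 22.3 FPKM (limma adjusted p = 0.649).

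Regulators of glycolytic flux gave 4 rises and 1 fall among 17 tested of 20 genes, or 29.4% called beside 21% of all tested genes, with a median log2 change of 0.27. Of the risen, Epas1 and Pdk2 had control means under 1 FPKM and passed the filter through the dKO libraries, where 77.4% rose. Of the 15 others 2 rose and 1 fell. Epas1, which encodes a hypoxia-inducible factor, measured 0.469, 0.519 and 0.435 FPKM in controls, against 10.2, 10.7 and 10.5 in the dKO group. This change had little spread in either group (log2 change 2.96 ± 0.18, SE; limma adjusted p = 1.99e-05). The related gene Hif1a averaged 66.4 and 61.2 FPKM (limma adjusted p = 0.583) and their partner Arnt 30.0 and 40.3 FPKM (limma adjusted p = 0.124). Pdk1 and Pdk2, kinases that switch off pyruvate dehydrogenase, rose with log2 changes of 0.61 and 1.47, and Pdp2, a phosphatase that switches it on, with 1.43. Pdk1 was named after its values were seen, and its call held in 3 of the 14 alternatives that tested it (limma adjusted p 0.0274 to 0.279), and was lost without any 1 library other than dKO replicate 3. Gckr, the glucokinase regulator, fell (log2 change -0.86; limma adjusted p = 0.0422). The Gckr call was lost with no filter (0.0891), with array weights (0.0775), without any 1 control (0.0866 to 0.147) and without dKO replicate 1 (0.0956) or 3 (0.0789).

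**Figure D4:**
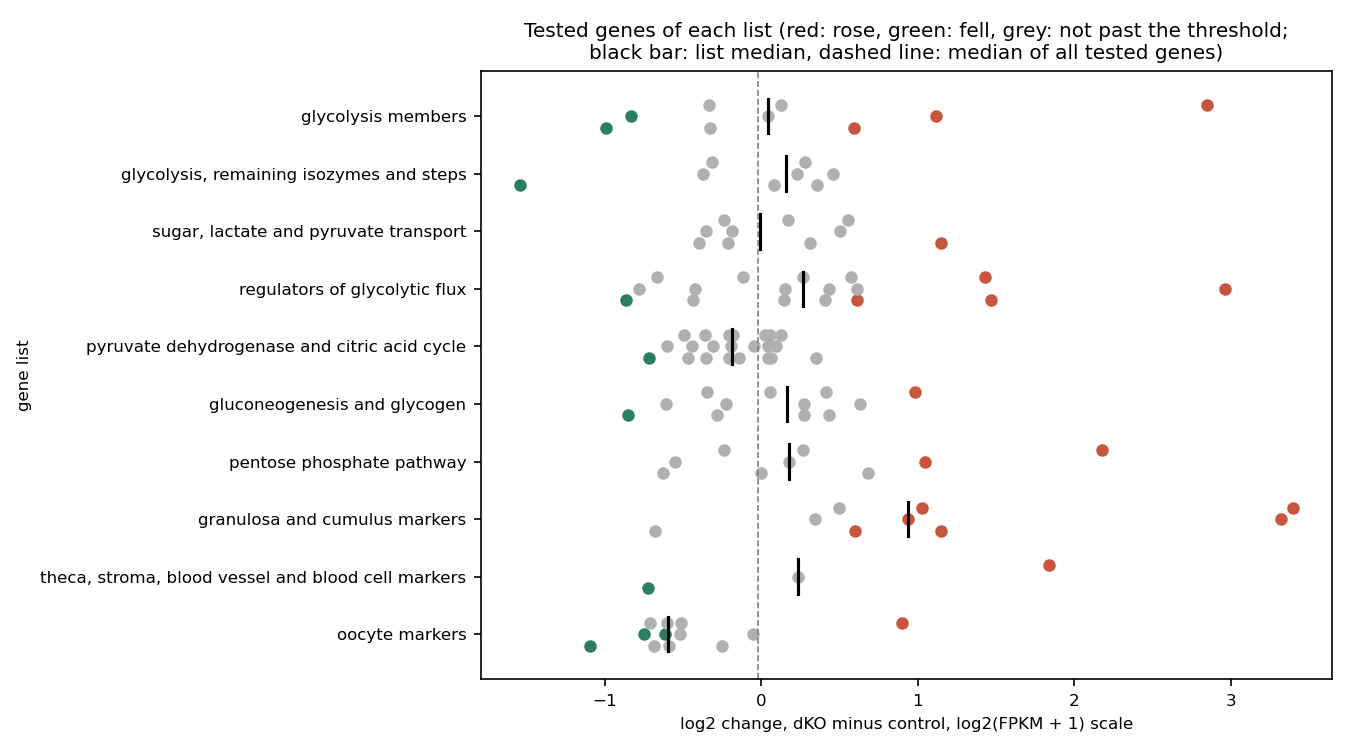
Log2 change, dKO minus control, of every tested gene of each list, coloured by call, with the list's median as a black bar and the median of all tested genes, -0.019, as a dashed line. Most metabolic genes lie within 1 log2 unit of 0, and of these lists only Epas1, Ldha and H6pd lie beyond 2, as do the granulosa markers Ptgs2 and Fshr.

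Pathways that branch from or follow glycolysis were read against the 21% called over all tested genes. That share includes genes with a control mean under 1 FPKM, of which 77.4% rose. At 1 FPKM or more 7.77% rose and 7.73% fell. Every tested gene of the gluconeogenesis and glycogen list and of the citric acid cycle list was at that level. In the pentose phosphate pathway 2 rose and 0 fell among 9 tested of 10 genes (limma; 2 and 1 at an unadjusted p under 0.05), which is 22.2% called, with a median log2 change of 0.18. H6pd, the glucose 6-phosphate dehydrogenase of the endoplasmic reticulum, measured 1.70, 2.21 and 1.80 FPKM in controls, against 6.60, 14.3 and 18.5 in the dKO group (log2 change 2.18; limma adjusted p = 0.00192). Tktl1, a transketolase-like gene that passed the filter through the dKO libraries, averaged 0.472 and 2.10 FPKM (limma adjusted p = 0.0185), a call lost with no filter (0.0608), after quantile normalization (0.255), without control replicate 1 (0.0738) or 2 (0.0813) and without dKO replicate 1 (0.0537). The cytosolic G6pdx averaged 307 and 213 FPKM (limma adjusted p = 0.0748).

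In gluconeogenesis and glycogen metabolism 1 rose and 1 fell among 12 tested of 18 genes, which is 16.7% called, with a median log2 change of 0.16. Pgm2, a phosphoglucomutase gene, rose (limma adjusted p = 0.0144), a call lost without control replicate 2 (0.0739) or 3 (0.0673). Fbp1, the gluconeogenic counterpart of phosphofructokinase, fell (limma adjusted p = 0.0181), a call lost without any 1 control (0.0566 to 0.0850). Among 22 tested of 24 genes of pyruvate dehydrogenase and the citric acid cycle 0 rose and 1 fell (limma; 0 and 5 at an unadjusted p under 0.05), which is 4.55% called, with a median log2 change of -0.19. Ogdh, a subunit gene of the oxoglutarate dehydrogenase complex, fell (log2 change -0.72; limma adjusted p = 0.0308), a call lost without any 1 control (0.0850 to 0.137) and without dKO replicate 1 (0.0553).

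**Figure D5:**
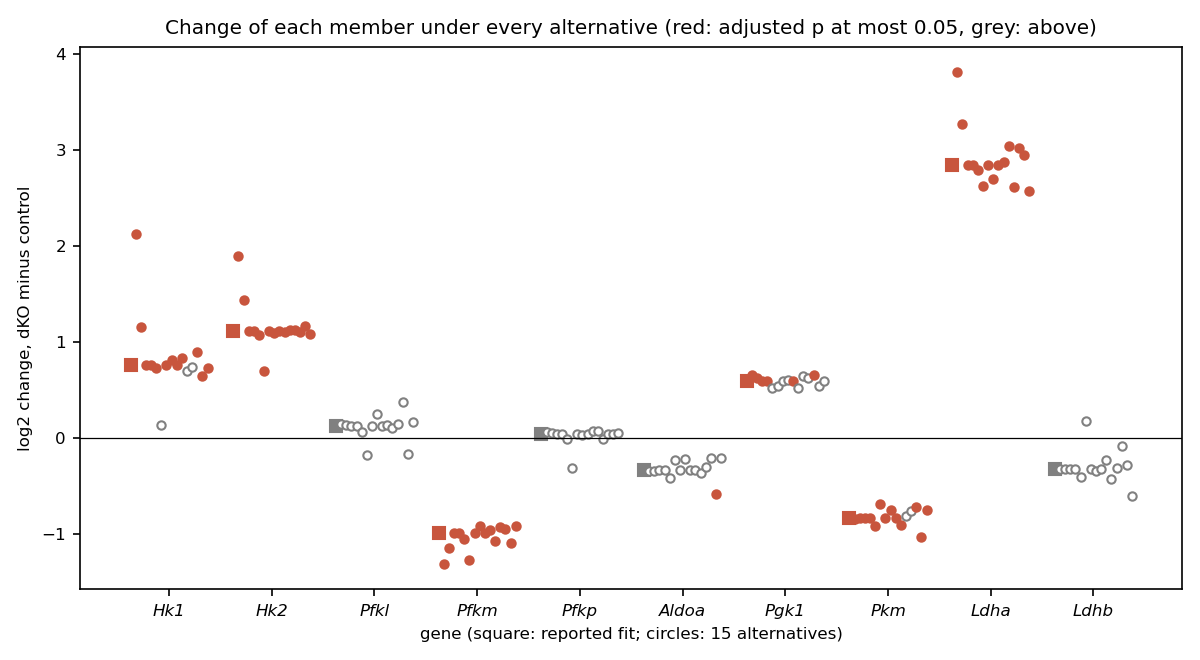
Log2 change of each of the 10 genes in the reported fit (square) and in 15 alternatives (circles), red where the adjusted p is at most 0.05. Genes that did not pass a filter were added back to the kept genes (Hk1 in 14 alternatives, Hk2, Pfkl, Pfkm and Pfkp at the 5 FPKM filter); so drawn, Ldha, Hk2 and Pfkm are red throughout, Pgk1 in 6 of the 15 and Aldoa in 1.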

How the data were processed

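The deposited table gives FPKM, per the file's name, for each of 6 libraries. TopHat2 2.0.11, Cufflinks 2.0.2 and mm9 are listed in the submitters' processing notes; for annotation and strand the sources used here give nothing, so overlapping genes may share reads. Per the labels' protocols, granulosa cells were pipetted off and Ovation v2 amplification preceded the library step. Of 24525 rows 497 repeats were removed. The 11334 genes kept by a filter of 1 FPKM in 3 libraries were fitted as log2(FPKM + 1), a scale that understates changes of low genes, with limma 3.58.1 in R 4.3.3 (trend, two-sided), after a check on simulated data. The check planted changes of 1 log2 unit in 91 genes and of 2 in 109. It recovered 41.8% and 92.7% of them, with 4.14% of calls false, so changes of 1 log2 unit can be missed. It changed a far smaller part of the genes than the 21% called in the data. Its noise was drawn separately for each gene, without shifts of a whole library. The shares recovered and false in the data may therefore differ from these. P-values were Benjamini-Hochberg adjusted over all of them, with a threshold of 0.05. No second tool was run. Lists (glycolysis, transport, regulators, branches, other cell types, oocyte) are described by counts and medians. Genes outside the 10 were named by a rule: from each list up to 3 rising and 3 falling genes with the largest change and the 2 of highest mean, and the 5 genes most like the most changed of the 10. The members and lists were chosen with earlier results of these data known. Same-numbered libraries shared a flow-cell lane per the labels. Their deviations from the group means correlated at 0.147, 0.107 and 0.0637, and those of differently numbered libraries at -0.110 to 0.0179. Deviations from a group's own mean are tied to one another, so these values are a description and were not tested. The index sequence also differed by group, and the index and the genotype cannot be told apart.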

Additional observations from a re-analysis of the deposited data

How the results depend on the processing

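Depth limits the low values of Hk1, Hk2 and Ldha, and 3 libraries a group limit every test. Genome-wide, 1587 genes were higher and 798 lower (66.5% higher); median-ratio scaling gave 1520 and 1275 (54.4%), quantile normalization 1191 and 1073 (52.6%) and the 5 FPKM filter 655 and 559 (54.0%), with fewer genes tested. Leaving out 1 library gave 1087 to 1869 higher and 231 to 1465 lower, the fewest without a control and the most without dKO replicate 2 (lower) or 3 (higher). With the replicate block 1681 were higher and 887 lower, and of the 10 glycolysis genes the block ended only the call of Pgk1 (limma adjusted p = 0.0630). Among the other genes named by the rule the block ended that of Bmp15 (limma adjusted p = 0.0740) and changed no other call; the cause was not tested. Of those 10, 1 was called lower at the 5 FPKM filter, which 5 of them pass, and 1 to 3 without 1 library. After quantile normalization the log2 change was -0.17 for Pfkl, -0.31 for Pfkp, 0.18 for Ldhb, 0.0054 for Bpgm, 0.038 for Hif1a and 0.076 for Gyg, and after median-ratio scaling -0.0082 for Pfkp. Leaving out 1 library, Pfkp ranged from -0.016 to 0.071, Pfkl from -0.16 to 0.38, Dld from -0.040 to 0.17 and Slc2a1 from -0.50 to 0.023. The Ldha share rose by 0.644 to 0.705 percentage points and the Pfkm share changed by -26.5 to -22.7 percentage points, and the Hk1 share by 2.89 to 15.2, each without 1 library.

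Counts on the other lists moved as follows, and the cause was not tested beyond the fewer genes or samples of a setting. With no filter, regulators had 0 lower, the pentose phosphate list 1 higher, theca and other markers 4 higher and 0 lower, and oocyte markers 0 higher and 1 lower. At the 5 FPKM filter, transport had 0 higher, regulators 1, glycogen 0, pentose phosphate 1, granulosa 3, theca 0 and oocyte 0. After median-ratio scaling the citric acid cycle had 3 lower, granulosa 1 lower and oocyte 0 higher and 6 lower. After quantile normalization transport had 0 higher, regulators 2 lower, pentose phosphate 1 higher, granulosa 3 higher and 1 lower, and oocyte 1 lower. The replicate block gave regulators 2 lower. Array weights gave pentose phosphate 1 lower, theca 0 lower and oocyte 0 higher. Pseudocount 0.1 and no trend each gave granulosa 1 lower. Leaving out 1 library gave 0 to 1 higher for the remaining glycolysis genes, 1 to 2 for transport, 0 to 2 for glycogen, 1 to 2 for pentose phosphate, 3 to 7 for granulosa and 0 to 1 for oocyte markers, and 0 to 2 lower for regulators and for glycogen, 0 to 4 for the citric acid cycle, 0 to 1 for pentose phosphate and for theca, and 0 to 6 for oocyte markers.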
